A study of Zea mays with 4 samples.

Results

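The maize genes adh1, pdc3, sh1 and sus1 code for enzymes that carry sugar into ethanol fermentation, and their transcripts were followed in chilled seedlings. The 4 genes were taken by their identifiers from a table of 46430 loci. They are adh1 (Zm00001d033931), an alcohol dehydrogenase, pdc3 (Zm00001d028759), a pyruvate decarboxylase, and the sucrose synthases sh1 (Zm00001d045042) and sus1 (Zm00001d047253). RNA-seq was carried out on whole wild-type seedlings of the inbred line B73, the line behind the maize reference genome, in 2 control and 2 cold libraries. All plants were raised in soil in a growth chamber, at 25 to 28 °C and under days of 16 h light with nights of 8 h, until day 9. Control plants then stayed in these conditions, cold plants were moved to 4 °C for 24 h, and whole seedlings from 10 plants aged 10 days were collected. Whether the replicate libraries came from separate pools of plants or separate sowings is not stated in the labels, and p-values therefore speak only of library-to-library spread, which may be technical. In the deposited column names, both control libraries carry the same trailing number, while the cold libraries carry different ones. What this number marks is not stated.

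Sucrose synthase splits sucrose, the sugar that plants transport, into fructose and UDP-glucose and so feeds both glycolysis and the synthesis of starch and cell walls. When oxygen is short, pyruvate decarboxylase turns the pyruvate made by glycolysis into acetaldehyde, and alcohol dehydrogenase reduces it to ethanol, which regenerates the NAD+ that glycolysis needs. Maize seedlings are a classical system for this response: Adh1 and a sucrose synthase belong to the anaerobic polypeptides made in flooded roots. Accumulation of Adh1 transcript in chilled seedlings has been described too. Loss of sh1 gives the shrunken kernels that named the gene.

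The libraries held 28493929 and 23713326 fragments in control replicates 1 and 2, and 24176378 and 20942576 in cold replicates 1 and 2. A floor of 3 fragments corresponded to 0.105 to 0.143 CPM, the count scaled to a common library size, and such floors cover counting error only. Of 9 plastid-encoded genes taken as markers of green tissue, rbcL lay between 13.7 and 18.6 CPM by library totals, and psaA was at 0.983 and 0.843 CPM in control and 2.28 and 2.05 CPM in cold. The other 7 stayed at or below 0.620 CPM in each library, and psbB had 0 fragments in all 4. Summed over the 9 genes, the markers made up 0.00177% and 0.00168% of fragments in control against 0.00219% and 0.00166% in cold, and most of these fragments came from rbcL. The sources used here do not say whether RNA was selected by poly(A) tails, which most plastid transcripts lack. The summed share of mitochondrial transcripts, a possible sign of RNA quality, was 0.0767% and 0.0703% in control and 0.134% and 0.112% in cold. In whole-seedling RNA, fewer cells of a type and less transcript per cell cannot be told apart.

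The genes lie in pairs on 2 chromosomes and differ in structure, with coordinates in B73 RefGen_v4. On the minus strand of chromosome 1, adh1 spans 278821298 to 278825118 and pdc3 spans 45724685 to 45729020. On chromosome 9, sh1 runs along the plus strand from 10906934 to 10912944, and sus1 along the minus strand from 124178172 to 124184872. Merged over all annotated transcripts, their exons form 10 blocks of 2330 bases in adh1, 6 blocks of 3575 bases in pdc3, 15 blocks of 4021 bases in sh1 and 14 blocks of 4770 bases in sus1. Both sucrose synthase genes begin with a long block, of 1385 bases in sh1 and 1782 bases in sus1, while the longest block of pdc3, of 1784 bases, is its last. The annotation lists 63 exon entries for adh1, 282 for sh1 and 231 for sus1, against 6 for pdc3, so the count of each of the first 3 genes sums over many transcript forms. No other annotated gene overlaps any of the 4. Related genes exist for each enzyme, and reads that mapped to several copies are absent from the counts, so levels of sh1 and sus1 in particular are uncertain where their sequences match.

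**Figure D1:**
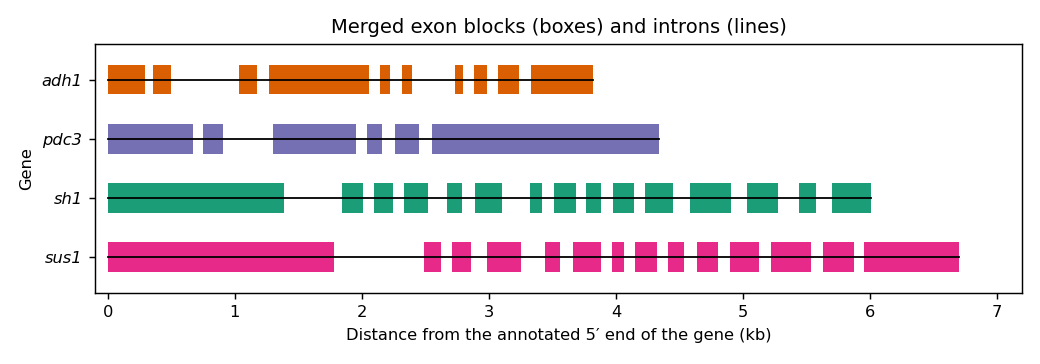
Merged exon blocks (boxes) and introns (lines) of adh1, pdc3, sh1 and sus1, plotted by distance in kb from the annotated 5′ end of each gene. adh1 and pdc3 have 10 and 6 blocks, and the sucrose synthase genes have 15 and 14, each opening with a long block.

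After the day at 4 °C, sh1 was the only gene of the 4 whose transcript level was called different, and it was higher in cold. Its fold change was 1.97, while adh1 and sus1 had fold changes of 1.13 and 1.11 and pdc3 of 0.694, none of which passed the test. That is 1 of 4 genes called, where 54.0% of 23169 tested genes were called, 27.0% higher and 27.0% lower (quasi-likelihood test of edgeR, adjusted p under 0.05 by Benjamini-Hochberg). The even split over all genes depended on scaling, with 4768 called higher and 8188 lower under library totals and 5199 and 7849 under upper-quartile factors. The median log2 fold change of the 4 genes was 0.16, against -0.03 over all tested genes. All 4 genes passed the filter on low counts. Mitochondrial transcripts, given above, also took a larger share of the cold libraries, and their part in these differences was not tested.

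The sucrose synthase sh1 had 5924 and 5659 fragments in control and 12221 and 5447 in cold. Scaled by library size with TMM factors, its level was 197.5 and 217.2 CPM in control replicates 1 and 2, and 523.4 and 291.3 CPM in cold replicates 1 and 2. Both cold libraries lay above both control libraries, and cold replicate 1 stood far above the other three. Groups that did not overlap were found for 2 of the 4 genes, sh1 and narrowly pdc3, and for 79.4% of tested genes (38.2% with cold higher). The mean level was 207 ± 13.9 CPM in control and 407 ± 164 CPM in cold (SD, n = 2 each). The log2 fold change was 0.97 (SE 0.26, 95% interval 0.37 to 1.57, edgeR adjusted p = 0.0147), higher than that of 83.3% of tested genes or equal to it. Single libraries weighed on this value: the log2 fold change was 0.49 without cold replicate 1 and 0.93 without control replicate 1, where the call was lost. Each of these fits leaves 1 library in a condition and cannot measure the spread there.

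The second sucrose synthase, sus1, had the most fragments of the 4, with 19476 and 22702 in control and 23553 and 12720 in cold. Its level was 649.4 and 871.3 CPM in the control libraries and 1009 and 680.2 CPM in the cold ones. The groups overlapped, with cold replicate 1 highest and control replicate 1 lowest. The means were 760 ± 157 CPM in control and 844 ± 232 CPM in cold (SD, n = 2 each), and the log2 fold change of 0.15 (SE 0.24) was not called (edgeR adjusted p = 0.614). Its 95% interval, from 0.757-fold to 1.63-fold, leaves room for a moderate change either way. Direction was not settled, since the log2 fold change was -0.05 with library totals alone and -0.16 without cold replicate 1.

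For the fermentation enzyme adh1, 559 and 581 fragments were counted in control and 636 and 354 in cold. The levels were 18.6 and 22.3 CPM in control replicates 1 and 2, and 27.2 and 18.9 CPM in cold replicates 1 and 2. The groups overlapped: cold replicate 1 was the highest library and cold replicate 2 lay between the controls. Means of 20.5 ± 2.59 and 23.1 ± 5.88 CPM (SD, n = 2 each) gave a log2 fold change of 0.18 (SE 0.19, edgeR adjusted p = 0.465) and a 95% interval of 0.827-fold to 1.55-fold. A fold change as large as the 1.97 estimated for sh1 lies outside this interval. The 95% interval of sh1 itself, from 1.30-fold to 2.98-fold, overlaps that of adh1. The sign changed with library totals alone (-0.03) and without cold replicate 1 (-0.11), and the value was 0.43 without cold replicate 2. Fits without a cold replicate rest on 1 cold library and cannot measure the spread between cold libraries.

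The decarboxylase gene pdc3, which acts one step before adh1, had 509 and 560 fragments in control and 396 and 179 in cold. Its levels were 17.0 and 21.5 CPM in the control libraries, and 17.0 and 9.57 CPM in the cold ones. Cold replicate 1 thus sat level with control replicate 1 (16.96 against 16.97 CPM), and cold replicate 2 was the lowest of the 4 libraries. The means were 19.2 ± 3.20 CPM in control and 13.3 ± 5.22 CPM in cold (SD, n = 2 each), with a log2 fold change of -0.53 (SE 0.26, 95% interval -1.14 to 0.08, edgeR adjusted p = 0.125). The log2 fold change was -1.004 without cold replicate 1 and -0.17 without cold replicate 2. Each of these fits rests on 1 cold library and cannot measure the spread between cold libraries. With all 4 libraries, pdc3 was called lower only when no filter on low counts was applied (-0.53, edgeR adjusted p = 0.0169). The log2 fold change hardly moved in that fit, and the edgeR adjusted p of sh1 fell there too, from 0.0147 to 4.8e-06. The cause was not tested. Under the other scalings, the stricter filter, DESeq2 and the replicate block, pdc3 was not called (edgeR or DESeq2 adjusted p from 0.0597 to 0.143).

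**Figure D2:**
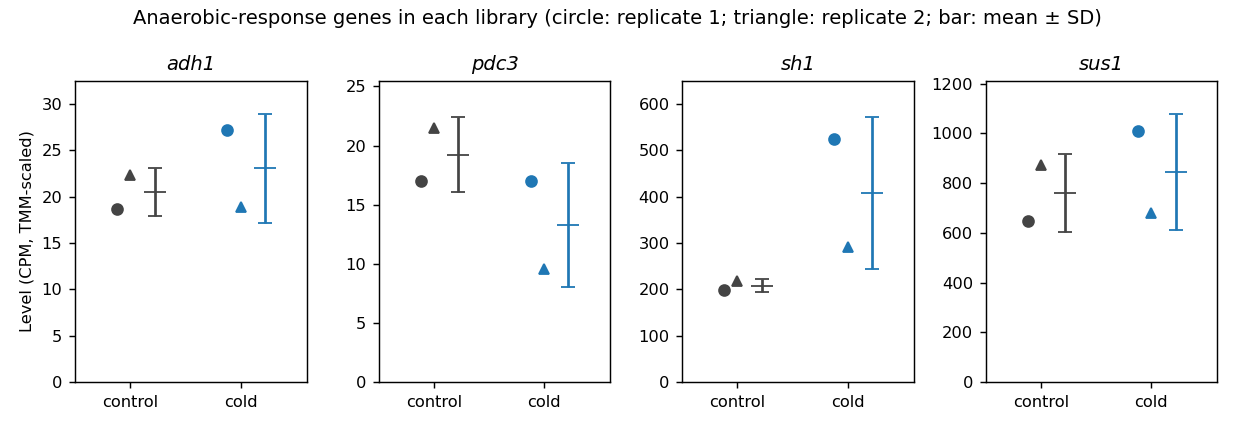
Level of each gene in TMM-scaled CPM (y axis from 0, a separate scale for each gene) in control (grey) and cold (blue) libraries, with replicate 1 as a circle, replicate 2 as a triangle and a bar for the mean ± SD of 2 libraries. For sh1 both cold libraries (523.4 and 291.3 CPM) lie above the controls, and for all 4 genes the cold circle lies above the cold triangle.

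**Figure D3:**
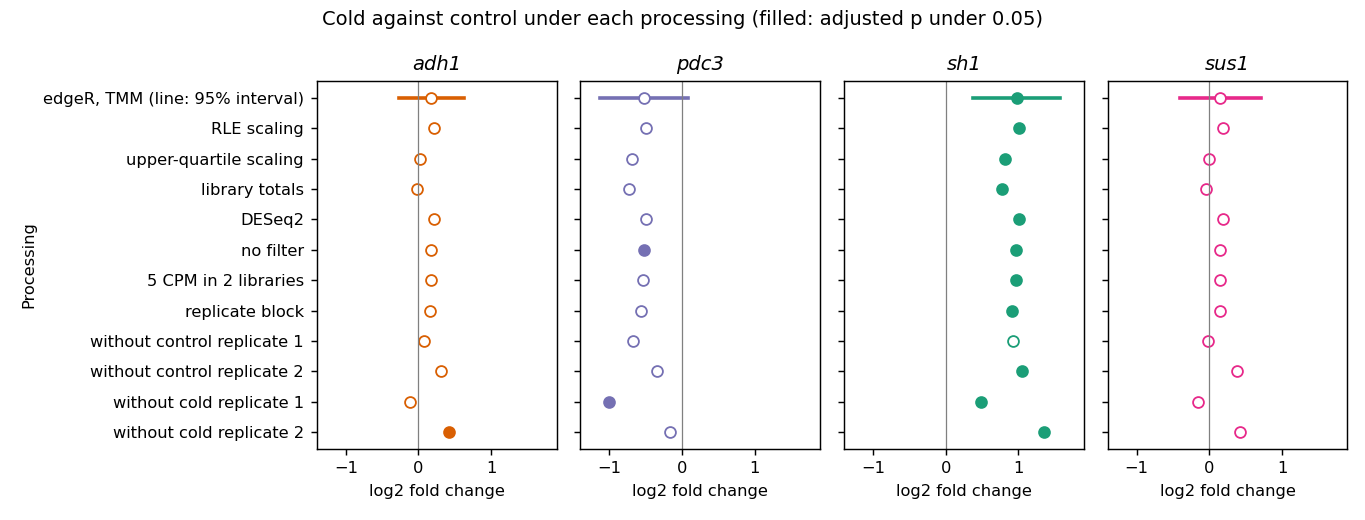
The log2 fold change of cold against control (x axis) for each gene under each processing (y axis), filled where the edgeR or DESeq2 adjusted p was under 0.05, with a line for the 95% interval of the TMM-scaled edgeR fit. sh1 stays right of 0 throughout, between 0.49 and 1.35, pdc3 stays left of 0, and adh1 and sus1 lie on either side of it.

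Per kilobase of exon, a scale that allows for the annotated length of each gene, the order in control was sus1, sh1, adh1 and pdc3. That length is merged over all annotated transcripts and may exceed the length of the transcripts present, unequally between genes. Comparisons of level between genes are therefore approximate. Expressed as CPM per kilobase of exon, levels in control were 159 ± 32.9 for sus1, 51.6 ± 3.46 for sh1, 8.79 ± 1.11 for adh1 and 5.38 ± 0.894 for pdc3 (SD, n = 2 each). In cold they were 177 ± 48.7 for sus1, 101 ± 40.8 for sh1, 9.91 ± 2.52 for adh1 and 3.71 ± 1.46 for pdc3. The order was the same in both conditions and in each of the 4 libraries. The value of sus1 was as high as or higher than that of 97.8% of tested genes in control, and that of sh1 than 92.0% in control and 95.9% in cold. The fermentation genes sat in the middle of the distribution, with adh1 at 61.1% in control and 62.2% in cold, and pdc3 at 47.9% and 39.6%. Together sh1 and sus1 took 0.0891% and 0.120% of all fragments in control and 0.148% and 0.0867% in cold.

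The cold libraries differed from each other in all 4 genes in the same direction. In TMM-scaled CPM, cold replicate 1 exceeded cold replicate 2 by a ratio of 1.80 for sh1, 1.77 for pdc3, 1.48 for sus1 and 1.44 for adh1. The 95% counting intervals of these ratios were 1.74 to 1.86 for sh1, 1.48 to 2.13 for pdc3, 1.45 to 1.51 for sus1 and 1.26 to 1.64 for adh1, so counting error alone does not span them. Few tested genes had a larger difference in that direction, 1.87% of them for sh1, 2.27% for pdc3, 5.83% for sus1 and 7.23% for adh1. In control, all 4 genes were lower in replicate 1, by ratios between 0.745 for sus1 and 0.909 for sh1. The share of tested genes lower still was 26.7% for sh1, 15.5% for adh1, 10.9% for pdc3 and 7.31% for sus1. Each share was larger than that gene's share in cold, though for sus1 by little.

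**Figure D4:**
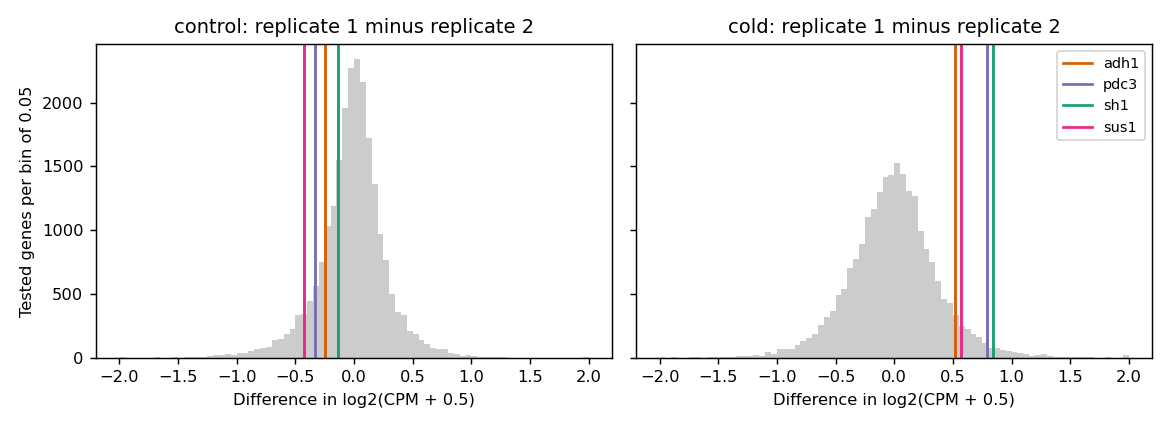
Difference between replicate 1 and replicate 2 in log2(CPM + 0.5) over all tested genes (grey histogram, bins of 0.05, values beyond the axis drawn in the end bins) in control (left) and cold (right), with a coloured line for each of the 4 genes. In cold the lines lie between 0.51 and 0.84, in the upper part of the distribution, and in control between -0.42 and -0.14.

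Ratios between the genes within a library do not depend on how libraries are scaled, and most of them did not overlap between conditions. The ratio of sh1 to sus1 per kilobase was 0.361 and 0.296 in control replicates 1 and 2, and 0.616 and 0.508 in cold replicates 1 and 2. Both cold values thus exceeded both control values, by 1.71-fold on average (log2 difference 0.78, SE 0.20). The ratio of pdc3 to adh1 was 0.594 and 0.628 in control and 0.406 and 0.330 in cold, a log2 difference of -0.74 (SE 0.16). Relative to adh1, pdc3 was thus lower in each cold library than in either control library, although neither gene was called on its own. For each of these ratios the exact permutation test, two-sided, gave p = 0.333, the smallest that 2 libraries against 2 allow (adjusted p = 0.4 over the 6 pairs of genes).

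The widest difference was between sh1 and pdc3, whose ratio was 10.3 and 8.98 in control and 27.4 and 27.0 in cold. This 2.82-fold difference (log2 difference 1.497, SE 0.10) had an exact permutation p = 0.333, again the smallest that 2 libraries against 2 allow. The ratio was nearly equal in the cold libraries, although the CPM of each gene alone differed between them, by the ratios of 1.80 and 1.77 given above. The ratio of sus1 to adh1, in contrast, was 17.0 and 19.1 in control and 18.1 and 17.5 in cold, with overlapping groups and a log2 difference of -0.02 (SE 0.09, exact permutation p = 1). In all, 5 of 6 pairs did not overlap between conditions. The pairs share genes and libraries, so they are not 6 separate outcomes. Among all tested genes, the ratio to adh1 did not overlap for 64.9%, the ratio to pdc3 for 60.4%, the ratio to sh1 for 74.8% and the ratio to sus1 for 58.9%, so separation of this kind was common and is not particular to these genes.

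**Figure D5:**
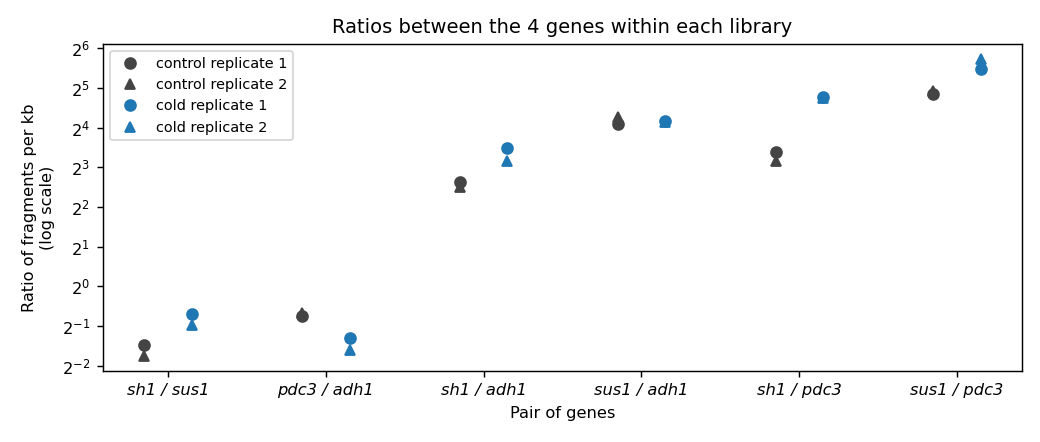
Ratio of fragments per kilobase between pairs of the 4 genes within each library (y axis, log scale), in control (grey) and cold (blue), with replicate 1 as a circle and replicate 2 as a triangle. The ratio of sus1 to adh1 lies between 17.0 and 19.1 in all 4 libraries, and that of sh1 to pdc3 goes from 10.3 and 8.98 to 27.4 and 27.0.

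Profiles over the 4 libraries were also compared by Euclidean distance between log2(CPM + 0.5) values centred on each gene's mean, a description that rests on 4 points sharing the same libraries. The nearest pair among the 4 genes was adh1 and sus1, at a distance of 0.128, and the farthest was pdc3 and sh1, at 1.48. Of 13129 other tested genes whose mean reached 10 CPM, 27 lay nearer to adh1 than sus1 did, and 12 lay nearer to sus1 than adh1 did. The nearest of those genes was Zm00001d044281 for adh1 (distance 0.0386), Zm00001d014887 for pdc3 (0.0763) and Zm00001d007679 for sh1 (0.0799). Levels of Zm00001d044281 were 9.07 and 11.1 CPM in control and 13.3 and 9.46 CPM in cold. Those of Zm00001d014887 were 46.3 and 56.0 CPM in control and 47.2 and 25.5 CPM in cold, and those of Zm00001d007679 were 11.9 and 13.2 CPM in control and 30.9 and 16.8 CPM in cold. These genes were picked for their likeness over the same libraries, so their values add no support to those of adh1, pdc3 and sh1. The names of these genes are not used here, because the identifiers are not paired with names in the tables used.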

How the data were processed

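One deposited table holds the raw count of fragments for each gene in 4 libraries, kept apart. Per the file headers, the authors ran featureCounts 1.6.4 with release 43 of the B73 RefGen_v4 annotation, taking read pairs as fragments, ignoring strand, and setting no option for reads in several places or genes. The submitters' processing notes also name fastp and HISAT2, whose versions are not given there. Exon lengths are other values deposited by the authors in the same table, and they matched the merged exon coordinates of the 4 genes.

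Low counts were removed with filterByExpr (at least 10 fragments, and 15 in total), which left 23169 genes. Libraries were scaled by TMM, and cold was set against control with edgeR 4.0.16 (R 4.3.3) by its quasi-likelihood F test, two-sided, with Benjamini-Hochberg adjustment over all tested genes and a call under 0.05. The common biological coefficient of variation was 0.143. The standard error is the log2 fold change divided by the square root of F, and intervals use the fit's 7.54 degrees of freedom. Ratios within a library add 0.5 fragment to each count. Counting intervals are exact binomial, cover counting error only, and treat fragments as independent molecules. Genes called most alike were taken by a rule: the nearest tested gene of at least 10 CPM for each of the 4, in order, up to 2 that rose and 2 that fell by sign.

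The 4 genes were named as in the rule that chose them. All 4 symbols are also in a RefSeq table of another assembly, Zm-B73-REFERENCE-NAM-5.0, which pairs 0 of 44146 nuclear identifiers with a name. A list of 14 other genes of the anaerobic response (11 in that table by symbol, 0 with an identifier in the counts) was therefore not analysed here, and no sequences are shown. The members and lists were chosen with earlier results of these data known. The replicate numbers of control and cold do not mark a stated shared batch. Alternatives were other scaling factors, DESeq2 1.42.0, other filters, the replicate number as a block, another pseudocount, and leaving out each library.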

Additional observations from a re-analysis of the deposited data

How the results depend on the processing

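With a library left out, which leaves 1 in its condition that is assumed to vary like the others, log2 fold changes ranged from 0.49 to 1.35 for sh1, from -1.004 to -0.17 for pdc3, from -0.11 to 0.43 for adh1 and from -0.16 to 0.42 for sus1. The reversals of sign were adh1 with library totals (-0.026) and without cold replicate 1 (-0.11), and sus1 with library totals (-0.053), with upper-quartile factors (-0.0075), without control replicate 1 (-0.03) and without cold replicate 1 (-0.16). None of these values was called (edgeR adjusted p from 0.498 to 0.982). The calls that changed were those of sh1 without control replicate 1, of adh1 without cold replicate 2, and of pdc3 without cold replicate 1 and with no filter (-0.53). The cause was not tested. Library totals moved the median of all tested genes from -0.03 to -0.24. Over all tested genes, 6256 were called higher and 6259 lower. With library totals these counts were 4768 and 8188, with upper-quartile factors 5199 and 7849, and with a library left out 4599 to 6395 and 4117 to 6452. As a replicate block, the number gave log2 fold changes of 0.16 for adh1, -0.57 for pdc3, 0.92 for sh1 (edgeR adjusted p = 0.0165) and 0.14 for sus1, and changed no call of these genes. Deviations of same-numbered libraries correlated across genes at -0.0868, so the numbers were not taken as pairs. With a library left out, the ratio differences ranged from 0.63 to 0.92 for sh1 to sus1 and from -0.89 to -0.59 for pdc3 to adh1. Their direction could not turn there, since the groups do not overlap. The smallest count of the 4 genes was 179 fragments, and each condition had 2 libraries. Both limit precision.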

Other observations

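Of the 8 genes that flank the 4, 6 were tested, and 3 were called higher and 0 lower, where 54.0% of all tested genes were called. The gene downstream of pdc3, 1353 bases away on the opposite strand, was higher in cold, at 17.4 against 9.41 CPM (log2 fold change 0.89, edgeR adjusted p = 0.00276, n = 2 each), where pdc3 had a value of -0.53 that was not called. Downstream of sh1, 828 bases away on the opposite strand, the next gene had 36.9 CPM in control and 35.0 CPM in cold (log2 fold change -0.08, edgeR adjusted p = 0.618), and the gene 956 bases upstream of sh1 had 0 fragments in all 4 libraries. The nearest gene upstream of adh1, 73318 bases away on the same strand, rose by 0.38 on the log2 scale (edgeR adjusted p = 0.0326). Upstream of sus1, 109827 bases away on the same strand, a gene with 12 fragments in each control library had 56 and 59 in the cold ones (log2 fold change 2.67, edgeR adjusted p = 0.00112). The gene upstream of pdc3, with 16 and 21 fragments in control and 0 and 5 in cold, was not called (log2 fold change -2.41, edgeR adjusted p = 0.0632), nor was the gene downstream of sus1 (0.75, adjusted p = 0.122). The gene downstream of adh1 had 0 fragments in all 4 libraries. At an unadjusted p under 0.05 in edgeR, 1 of the tested neighbours was lower, and DESeq2 called 0 lower.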
